A study of Mus musculus with 148 samples.

Results

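The Ifitm family, genes for small interferon-induced transmembrane proteins, was followed through the immune cells of mouse lungs and mammary tumors along the course of breast cancer metastasis. The 5 genes described, Ifitm1, Ifitm2, Ifitm3, Ifitm6 and Ifitm7, were taken by name from the 52542 gene rows of the single-cell count tables. Those tables hold 7 Ifitm rows, and the 2 outside the list, Ifitm5 with 120 UMIs and Ifitm10 with 1617 UMIs in all immune cells, were left out. For every listed gene, unique molecular identifiers (UMIs, each standing for 1 captured RNA molecule) were summed over the cells of 1 mouse, 1 tissue and 1 cell label wherever at least 10 such cells existed, and given per 1000000 UMIs of that sum (CPM). The list was chosen by gene family, with its CPM levels across labels and tissues in these same data already known, so those levels are a description. Since the labels came from clustering the same cells on their expression, levels across labels are given without any test.

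All mice were C57/b6 PA-GFP females, a strain that carries a photoactivatable green fluorescent protein. Except in the Normal group, EO771-tdTomato cells, a mouse breast cancer line with a red fluorescent marker, had been injected into the mammary gland at 8 weeks of age. Lungs were taken with no tumor (Normal, 3 samples), before removal of the tumor (Pre-MET, 3), and after its resection at 3 weeks from lungs of mice without relapse (Relapse-free, 6), from lesions (MET, 13) and from the lung away from them (Distal normal tissue, 14). Photoactivated cells gave the MET Core (13) and the MET Invasive margin (7), and the tumor itself gave the Primary group (4). Endothelial cells (CD31 positive) were sorted out of every plate. CD45-positive cells were taken in Normal, Pre-MET, Distal normal tissue, MET and Primary plates, and most Core plates and all margin plates were gated on photoactivation without CD45. Relapse-free plates were of mixed gates. Mice 8, 9 and 10 gave both Pre-MET and Primary samples. Most Distal normal tissue, MET, MET Core and MET Invasive margin samples came from shared mice.

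In all, 23425 immune cells of 27 mice and 63 samples, 55 to 1974 cells per sample, carried 44678167 UMIs. They gave 510 sums over 26 labels, and 316 sums over 7 lineages made by joining labels. The median depth was 1133 UMIs a cell, and Primary cells were the deepest, at a median of 3525 in the median sample against 812 to 1201 in the other groups. Neutrophil marker genes summed to between 18191 CPM, in PMN-MDSC, and 359632 CPM, in Neut Camp, within the neutrophil labels and to at most 1609 CPM in every other label. The 3 Normal samples stood alone in 1 of 12 sequencing batches, so that batch and the Normal group cannot be told apart.

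IFITM proteins sit in the plasma membrane and in endosomes, where they hinder the fusion of many enveloped viruses with the cell. Interferons raise several of them through the interferon-stimulated response element (ISRE), bound by STAT and IRF factors, and the gamma-activated site (GAS), bound by STAT dimers. IFITM1, IFITM2 and IFITM3 are the antiviral members found in mouse and human, IFITM3 acting mainly in endosomes, while Ifitm6 and Ifitm7 are rodent members that have been studied less. In mice most of the family lies in 1 cluster on chromosome 7. In the GENCODE vM21 annotation of the mm10 build, Ifitm2 spans chr7:140954837-140955987, Ifitm1 chr7:140967221-140969825, Ifitm3 chr7:141009586-141010770 and Ifitm6 chr7:141015699-141017924. The windows of Ifitm1 and Ifitm6 given next lie inside these longer gene spans, since RefSeq places the start of both further downstream. Ifitm1 lies on the plus strand and the other 3 on the minus strand, and Ifitm7 lies apart, at chr16:13981699-13986888 on the minus strand.

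The promoters of the 3 members whose 300-base window holds such a motif are shown, because these are the elements through which interferon acts and because the members below differed in which cells held their RNA. Sequences are from RefSeq on GRCm38.p6, the patched form of the same build, 5′ to 3′ on the gene's strand from 250 bases before to 50 after the start, at chr7:140955912-140956211 for Ifitm2, chr7:141010695-141010994 for Ifitm3 and chr7:141016843-141017142 for Ifitm6. Capitals mark an ISRE, searched as GAAANNGAA on both strands, or a GAS, searched as TTCNNNGAA, which reads the same on both strands.
Ifitm2: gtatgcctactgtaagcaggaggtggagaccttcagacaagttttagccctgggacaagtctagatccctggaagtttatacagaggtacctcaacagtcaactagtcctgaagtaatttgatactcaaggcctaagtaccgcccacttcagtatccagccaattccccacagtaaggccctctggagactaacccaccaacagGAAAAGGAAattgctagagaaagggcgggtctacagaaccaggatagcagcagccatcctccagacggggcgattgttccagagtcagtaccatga
Ifitm3: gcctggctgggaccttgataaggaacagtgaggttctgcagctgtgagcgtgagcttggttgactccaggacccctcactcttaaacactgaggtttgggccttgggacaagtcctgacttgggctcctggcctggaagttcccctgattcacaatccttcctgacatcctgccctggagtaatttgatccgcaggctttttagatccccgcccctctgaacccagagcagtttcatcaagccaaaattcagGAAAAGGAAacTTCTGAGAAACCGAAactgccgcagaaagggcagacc
Ifitm6: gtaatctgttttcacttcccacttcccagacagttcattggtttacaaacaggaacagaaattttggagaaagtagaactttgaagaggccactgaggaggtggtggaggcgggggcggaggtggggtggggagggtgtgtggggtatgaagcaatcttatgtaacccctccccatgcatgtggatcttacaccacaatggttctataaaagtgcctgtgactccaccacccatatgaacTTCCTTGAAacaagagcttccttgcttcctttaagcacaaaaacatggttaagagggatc
The Ifitm2 window held 1 ISRE, GAAAAGGAA, in front of the start. The Ifitm3 window held 2 ISREs, GAAAAGGAA and GAAACCGAA, just after the start, with a GAS, TTCTGAGAA, between them that overlaps the second ISRE. The Ifitm6 window held a GAS, TTCCTTGAA, next to the start and no ISRE. The Ifitm1 window, chr7:140967826-140968125, and the Ifitm7 window, chr16:13986818-13987117, held neither run of letters. Of all 32851 promoter windows 8.56% held an ISRE and 8.30% a GAS. Of the 44 promoters found for a list of 50 interferon response genes, from which Ifitm genes were left out, 54.5% held an ISRE and 18.2% a GAS.

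Ifitm1 had its 3 highest means in neutrophils. Its mean level was 6176 ± 2583 CPM in Neut Ifit3 (SD, n = 16 sums), 5642 ± 2975 CPM in Neut Lcn2 (n = 24) and 3975 ± 2578 CPM in Neut Ptgs2 (n = 29). The ranges of these 3 populations overlapped, from 3316 to 12885, from 1528 to 12814 and from 109 to 10943 CPM. PMN-MDSC had 2076 ± 2305 CPM (n = 5), and Neut Camp, the cells with the highest level of neutrophil markers, 1202 ± 779 CPM (n = 4). Monocyte means were lower, with 424 ± 612 CPM in MHC-II monocytes (n = 23, up to 2331), 351 ± 402 CPM in Mon Thbs1 (n = 25, up to 1958), 86.2 ± 154 CPM in Mon Fn1 (n = 54) and 80.7 CPM in Mon Ace, and alveolar macrophages (Mac Cd9) 15.0 ± 27.2 CPM (n = 11). Where 1 sample gave both populations, Ifitm1 was higher in Neut Lcn2 than in Mon Fn1 in 22 of 22 samples and higher in Neut Ptgs2 than in Mon Fn1 in 28 of 28. Between Neut Ifit3 and Neut Ptgs2 it was higher in Neut Ifit3 in 9 of 14 samples, with means of 5591 and 5304 CPM. Outside neutrophils the highest mean was that of conventional type 2 dendritic cells (cDC2), which present antigen to CD4 T cells, with 3082 ± 2586 CPM (n = 16). Mac Cd81 had 769 ± 614 CPM (n = 9, up to 1621) and cDC1 644 CPM (n = 5, up to 1664), both overlapping Neut Camp.

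In cDC2, sums of at least 10 cells came from 4 tissues. For Ifitm1, Relapse-free lungs had a mean of 127 CPM (n = 3, 0 to 345), MET 3353 CPM (n = 6, 60.5 to 4843), MET Core 5518 CPM (n = 3) and Primary 3066 CPM (n = 4). Ifitm7 in the same cells had means of 46.0, 987, 937 and 691 CPM in that order of tissues, Ifitm3 2128, 4559, 5268 and 3832 CPM, and Ifitm2 1129, 5092, 4033 and 5215 CPM. Relapse-free cDC2 thus had the lowest mean of the 4 tissues for all 4 of these members, which was not tested because no planned comparison sets Relapse-free lungs against these tissues. Relapse-free cells also came in part from sequencing batches without MET, MET Core or Primary cells, such as SB96 and SB99. The part of the batch was not tested. Ifitm6 had 876, 382, 813 and 321 CPM, with Relapse-free highest. Between MET Core and Primary 0 of the 5 members were called in cDC2 by edgeR, with log2 differences from -0.66 to 1.25, adjusted p from 0.256 to 0.895, and overlapping sums for each. Of these, 1 had an unadjusted p below 0.05 (Ifitm6, 0.0127), and DESeq2 called 0. Within samples, cDC2 exceeded migratory dendritic cells in 3 of 3 samples for Ifitm1 (means of 2524 and 129 CPM), Ifitm2 (4713 and 1333 CPM) and Ifitm3 (3914 and 184 CPM). These 3 samples were all Primary, the only tissue in which migratory dendritic cells gave sums of at least 10 cells.

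Ifitm3, the member with the best-known part in defense against influenza virus, was broad among myeloid cells and was led by monocytes. Mon Thbs1, monocytes found mainly in lesions and tumors, had 5273 ± 1786 CPM (n = 25, 1805 to 9701), and Mon Fn1, the inflammatory monocytes, 4686 ± 969 CPM (n = 54, 3274 to 7181). These neighbors overlapped, and Mon Thbs1 was the higher in 10 of 22 samples with both. Next stood cDC2 at 4054 ± 1431 CPM, MHC-II monocytes at 3599 ± 1184 CPM, patrolling Mon Ace at 3219 ± 947 CPM and Mac Isg20 at 3094 ± 1270 CPM. Mon Fn1 exceeded Mon Ace in 29 of 31 samples, Mon Fn1 exceeded Neut Ptgs2 in 28 of 28, and Mac Isg20 exceeded Mac Gpnmb, the regulatory macrophages, in 9 of 9, with means of 2529 and 1382 CPM. Alveolar macrophages and B cells were at the low end, with 66.0 ± 98.8 and 159 CPM.

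Ifitm3 in Mon Fn1 moved little with tissue. Its group means ran from 3737 CPM in Pre-MET to 5351 CPM in Primary, with 5165 CPM in Normal, 4065 CPM in Distal normal tissue, 4805 CPM in Relapse-free, 4837 CPM in MET, 5330 CPM in MET Core and 4614 CPM in the margin. By edgeR no tested difference of Ifitm3 between tissues was called in any single label. DESeq2 called 1, in Mon Fn1 between Pre-MET and Normal (log2 fold change of -0.55, adjusted p of 0.0307).

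Ifitm2, a close relative of Ifitm3, was shared between neutrophils and monocytes. Its highest means lay in cDC2 at 4181 ± 3535 CPM, Neut Lcn2 at 4125 ± 2212 CPM, Neut Ifit3 at 3825 ± 2120 CPM and Neut Ptgs2 at 3778 ± 2375 CPM. Neut Camp (2988 ± 2025 CPM), Mon Thbs1 (2838 ± 1455 CPM), Mon Fn1 (2650 ± 1477 CPM) and Mac Cd81 (2509 ± 1266 CPM) followed with no gap in their ranges. Migratory dendritic cells kept 1333 ± 139 CPM of Ifitm2. At the low end were Mac Cd9 (112 ± 97.1 CPM), B cells (75.8 CPM) and NK Ncr1 cells (39.3 CPM).

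Ifitm6 had the most uneven pattern of the 5. Neut Camp, whose name gene encodes a secondary-granule protein made by maturing neutrophils, had 9342, 12086, 10918 and 4536 CPM in its 4 sums. The sums came from 3 mice, 1 of which gave both a Distal and the margin sum, and none held 20 cells. The lowest came from a Relapse-free lung, and the other 3, from Distal normal tissue and the margin, were all higher by more than 1 SD of the 4. Neut Lcn2, named for another granule protein, came next with 2329 ± 2045 CPM (n = 24, 395 to 7051), then Mon Fn1 with 1216 ± 491 CPM, Mon Ace with 771 ± 339 CPM and Neut Ptgs2 with 380 ± 321 CPM (0 to 1341). Within samples, Ifitm6 was higher in Neut Camp than in Neut Lcn2 in 4 of 4, with means of 9221 and 4624 CPM. It was higher in Neut Lcn2 than in Neut Ptgs2 in 17 of 18 (means of 1576 and 362 CPM). In Mon Fn1 it was higher than in Mon Ace in 27 of 31. Treg cells and migratory dendritic cells had 2.23 and 2.91 CPM.

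Ifitm7 was spread over the same cells as the others, with 756 ± 580 CPM in Neut Ifit3, 727 ± 677 CPM in cDC2, 675 ± 556 CPM in Neut Lcn2, 512 ± 453 CPM in Neut Ptgs2, 459 ± 265 CPM in Mon Thbs1 and 379 ± 272 CPM in Mon Fn1. It was higher in Mon Fn1 than in Mon Ace in 30 of 31 samples, with means of 285 and 177 CPM. Neut Ifit3 exceeded Neut Ptgs2 in 9 of 14 samples (means of 686 and 643 CPM). Mon Thbs1 exceeded Mon Fn1 in 10 of 22 (means of 461 and 450 CPM). B cells held 2.86 CPM. For each of the 5 members every label overlapped in range with the next in the order of means, and the means of neighbors lay within 1 SD of each other with the single exception of Neut Camp and Neut Lcn2 for Ifitm6. These means come from different samples. In the 4 samples with both labels, that pair had means of 9221 and 4624 CPM.

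**Figure D1:**
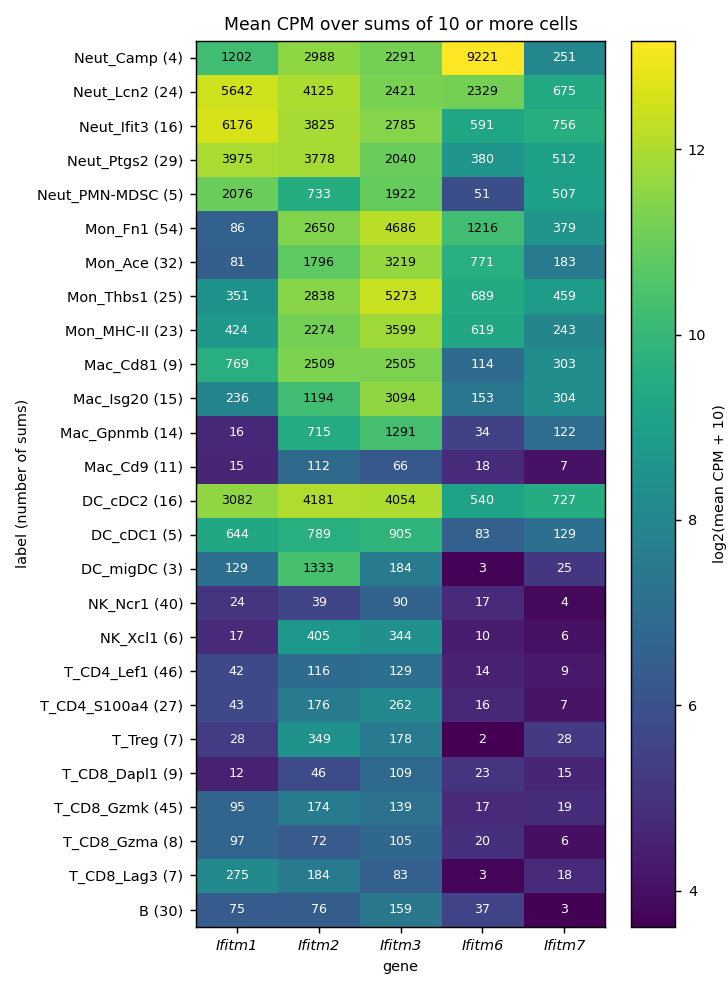
Mean level of each of the 5 Ifitm genes (columns) in every cell label (rows), colored by log2 of the mean CPM + 10. The mean CPM over sums of at least 10 cells is written in each field, and the number of sums stands in parentheses beside the label. Ifitm1 is high in the neutrophil labels and cDC2, Ifitm3 in monocytes, and Ifitm6 peaks in Neut Camp at 9221 CPM.

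**Figure D2:**
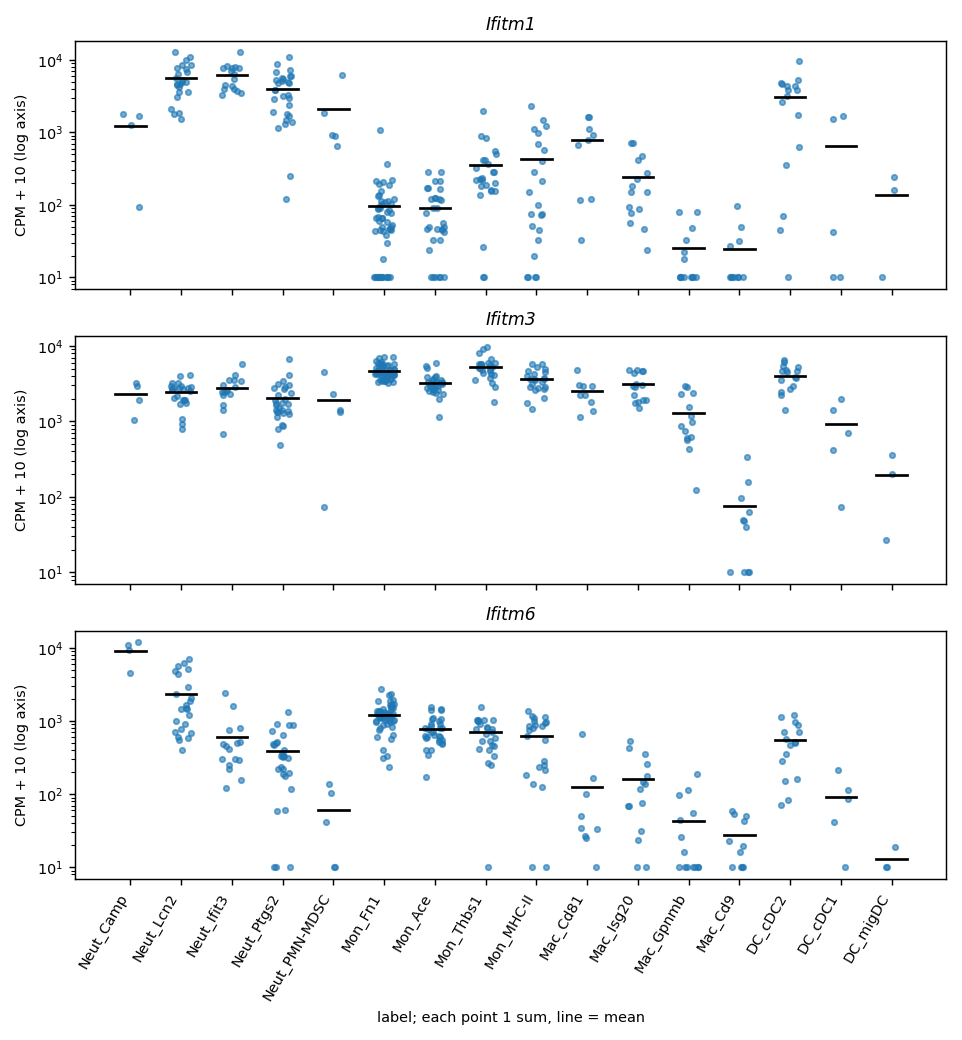
Level of Ifitm1, Ifitm3 and Ifitm6 in every sum of the myeloid and dendritic cell labels, as CPM + 10 on a log axis, with 1 point per mouse and tissue and a line at the mean. The Neut Ptgs2 points of Ifitm1 run from 109 to 10943 CPM, while the Mon Fn1 points of Ifitm3 stay between 3274 and 7181 CPM.

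Shares of single cells with a UMI were compared after every cell had been thinned to 500 UMIs. Ifitm1 was then detected in 70.9% of Neut Lcn2 cells (78.7% before thinning, 1604 cells, median of 1076 UMIs), in 67.1% of Neut Ifit3 and in 52.0% of Neut Ptgs2, but in 17.3% of Neut Camp and 3.54% of Mon Fn1. B cells gave a background of 1.33% (2.94% before thinning, 1055 cells, median of 1001 UMIs). Ifitm3 was detected in 78.6% of thinned Mon Thbs1 and 75.7% of Mon Fn1 cells against 5.97% of B cells, and Ifitm6 in 86.7% of Neut Camp, 49.0% of Neut Lcn2 and 35.9% of Mon Fn1 against 1.52% of B cells. At least 3 of the 5 genes were found together in 60.3% of thinned Neut Lcn2, 40.8% of Neut Camp, 39.6% of Neut Ifit3, 38.7% of cDC2 and 23.6% of Mon Fn1 cells. In B cells that share was 0.0948%. The 592 wells without a cell held 8490 UMIs in all, among them 21 of Ifitm3, 13 of Ifitm2, 6 of Ifitm6, 2 of Ifitm1 and 1 of Ifitm7.

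Over the 26 labels, the members rose and fell together to unequal degrees. Pearson's r of the mean log2(CPM + 10), a description over labels that share libraries and depth, was 0.939 for Ifitm3 with Ifitm7, 0.912 for Ifitm2 with Ifitm7, 0.907 for Ifitm2 with Ifitm3 and lowest, at 0.630, for Ifitm1 with Ifitm6. Among 9040 genes, the 3 most like Ifitm1 were Il1r2 (0.895), which encodes a decoy receptor for interleukin-1, Lpcat2 (0.881) and Gm7676 (0.875). Those most like Ifitm6 were I830077J02Rik (0.926), Pilrb1 (0.903) and Gm15931 (0.887). For Ifitm2 they were Gm45308 (0.969), Gm2840 (0.954) and AC156031.4 (0.919), for Ifitm3 AC156031.4 (0.989), Gm45308 (0.938) and Ifi204 (0.931), an interferon-inducible DNA sensor gene, and for Ifitm7 Gm7676 (0.978), Gm45308 (0.946) and Gm2840 (0.932).

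Several of these look-alikes are copies of the members. Gm7676, Gm45308 and Gm2840 are processed pseudogenes in the annotation. Over 319 aligned bases Gm7676 was 97.5% identical to Ifitm1, and it was 89.6% identical to Ifitm7, while Gm45308 and Gm2840 were 94.6% and 93.7% identical to Ifitm2. Ifitm1 and Ifitm7 shared 87.3% and Ifitm2 and Ifitm3 83.3%. The authors left out reads that map to several places, so reads from stretches common to a gene and its copy were not counted: 48.5% of the 50-base runs of Ifitm2 occur in another gene, 10.0% of those of Ifitm3, 6.36% of those of Ifitm1 and none of Ifitm6 and Ifitm7. In the last 300 bases, where this 3′ method reads, the share was 27.5% for Ifitm2 and 0 for the other 4. Gm7676 had 17890 UMIs against 9892 of Ifitm7 in the same sums, and 19453 against 38091 of Ifitm1 in all immune cells. Gm45308 had 5127 UMIs or 6.63% of Ifitm2. AC156031.4, whose sequence was not compared with any member, had 10152 UMIs or 10.9% of Ifitm3. The level of Ifitm2 is therefore uncertain by what was lost to its copies. What part of the Gm7676 and AC156031.4 UMIs stems from Ifitm1, Ifitm7 or Ifitm3 was not tested.

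To ask how the members differed before and after the appearance of metastases, the 3 Normal lungs were compared with Pre-MET, Distal normal tissue and Relapse-free lungs by edgeR's quasi-likelihood test on the sums, label by label, with Benjamini-Hochberg adjustment over all genes of a fit and calls at an adjusted p below 0.05. The 3 comparisons share the same Normal sums. Label counts here and below are of labels fitted, and in some of these labels no member passed the filter on low counts. In a sum, fewer expressing cells and less RNA per cell cannot be told apart.

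In Pre-MET lungs, 1 of 14 member tests in 8 labels was called, against 0.194% of all genes tested. It was Ifitm1 in Neut Ptgs2, with 4805, 5617 and 5983 CPM in the 3 Pre-MET lungs and 109, 238 and 1701 CPM in the Normal lungs. The Neut Ptgs2 fit, in which 3 members were tested, called 3 of 199 genes. Every Pre-MET sum was above every Normal sum, although Normal mouse 3 was far above the other two. The log2 fold change was 2.86 ± 0.65 (SE), with an adjusted p of 0.0275 by edgeR. Without Normal mouse 1 the log2 fold change was 2.44 (adjusted p of 0.352), without Normal mouse 2 it was 2.44 (0.183), and without Normal mouse 3 it was 4.73 (8.29e-05 by edgeR). In the same sums the 5 neutrophil markers summed to 124559 to 143632 CPM in Pre-MET and 91207 to 132499 CPM in Normal, and their part in the result was not tested. Ifitm6 in Mon Fn1 had 1010, 1252 and 1280 CPM in Pre-MET lungs, all below the Normal values given next, and missed the call (log2 difference of -0.996, adjusted p of 0.0660 by edgeR).

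In Distal normal tissue, 4 of 13 member tests in 9 labels were called, against 3.35% of all genes tested. They lay in 2 labels, in which 7 of 350 genes (Neut Ptgs2) and 125 of 2063 genes (Mon Fn1) were called. The 13 tests were in Mon Ace (4), Mon Fn1 (4) and Neut Ptgs2 (5), and no member was tested in the other labels. Ifitm1 in Neut Ptgs2 had 1885, 5153 and 10943 CPM as the lowest, median and highest of 6 sums, all above the 3 Normal sums. Its log2 fold change was 2.82 ± 0.63, with an adjusted p of 0.0187 by edgeR. It was 2.39 without Normal mouse 1 (adjusted p of 0.131), 2.41 without Normal mouse 2 (0.0739) and 4.82 without Normal mouse 3 (0.00153 by edgeR). Ifitm6 in Neut Ptgs2 had 168, 525 and 912 CPM in Distal normal tissue, a mean of 554 ± 322 CPM from 147 UMIs. The Normal sums held 0 Ifitm6 UMIs of 49590, which allows up to 60.5 CPM (3 UMIs over the group). The Distal mean was 9.16 times that bound, which takes no account of the spread between mice. The adjusted p by edgeR was 0.0418, it was 0.131, 0.0893 and 0.147 without Normal mouse 1, 2 or 3, and it was 0.138 without the filter on low counts. Ifitm6 passed that filter in Neut Ptgs2 through Distal sums alone, so its place among the 4 calls is a description.

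In Mon Fn1 Ifitm6 was lower, not higher, in the same tissue, and the difference between both labels was not tested. There the Normal lungs had 1901, 2330 and 2727 CPM, and the 13 Distal normal tissue sums 304, 1169 and 1857 CPM as the lowest, median and highest. No Distal sum reached the lowest Normal sum. The log2 fold change was -1.21 ± 0.34, with an adjusted p of 0.0254 by edgeR, and 0.105 without the filter on low counts. Without Normal mouse 1, 2 or 3 it was -1.26, -1.03 and -1.17, with an adjusted p of 0.0747, 0.140 and 0.0982 by edgeR. The mean was 2320 CPM in Normal Mon Fn1 and between 1006 and 1255 CPM in Mon Fn1 of each of the 7 other groups. Over all monocyte labels together the groups overlapped, at 1220, 1237 and 1804 CPM in Normal and 265, 1111 and 1759 CPM as the lowest, median and highest of 14 Distal sums, with no call (-0.59, adjusted p of 0.368 by edgeR). Ifitm7 in Mon Fn1 rose, from 26.9, 55.4 and 137 CPM in Normal to 93.0, 333 and 717 CPM in Distal normal tissue, with overlap at the low end. Its log2 fold change was 2.54 ± 0.62, with an adjusted p of 0.0111 by edgeR. It was 2.50 without Normal mouse 1 (adjusted p of 0.0554), 2.07 without Normal mouse 2 (0.0911) and 3.25 without Normal mouse 3 (0.00999 by edgeR). Marker lists named for other cells moved with both Mon Fn1 differences. The 5 macrophage markers summed to 2111 to 2492 CPM in Normal and 122 to 2027 CPM in Distal normal tissue, the 4 NK markers to 92.3 to 165 and 0 to 77.9 CPM, both without overlap. The 5 neutrophil markers summed to 111 to 494 CPM in Normal and 230 to 5629 CPM in Distal normal tissue, and the 4 alveolar macrophage markers to 618 to 1145 and 883 to 8125 CPM. Over all monocyte labels together, 2 of these 4 were detected in Distal normal tissue, with Car4 and Marco at 0, and all 4 in Normal. Their part in the results was not tested.

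Sequencing batch moved with several of these values. Within Mon Fn1, sums of batch SB118 had 1841 ± 429 CPM of Ifitm2 (n = 18, 1109 to 2681) and those of SB124 4978 ± 1360 CPM (n = 8, 3317 to 6955), although both batches hold Distal, MET, Core and margin samples. Ifitm7 was at 339 ± 118 and 806 ± 316 CPM in these batches, and Ifitm6 at 1404 ± 346 and 562 ± 337 CPM. Ifitm3 was alike in both, at 4788 and 4404 CPM. In batch SB112, the single Distal, Core, margin and Relapse-free sums had 93.0, 100.0, 90.1 and 100.5 CPM of Ifitm7, within the Normal range of 26.9 to 137 CPM, and 957 to 1252 CPM of Ifitm6. The part of the batch in either difference from Normal was not tested.

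**Figure D3:**
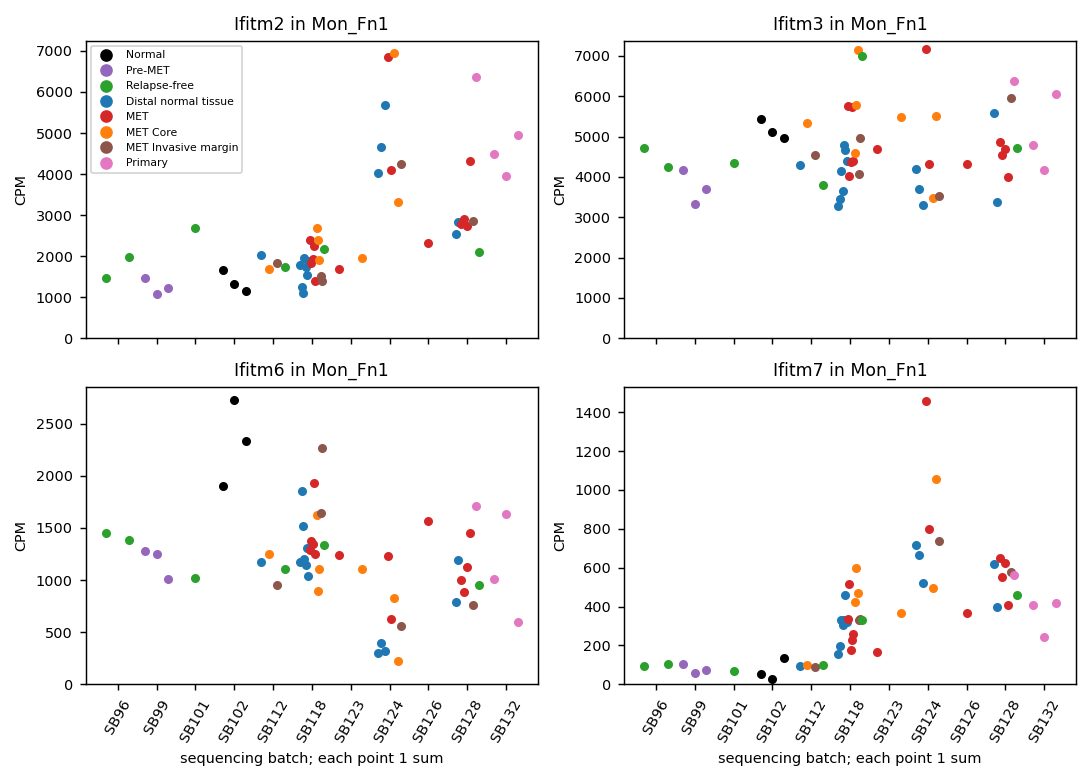
CPM of Ifitm2, Ifitm3, Ifitm6 and Ifitm7 in each Mon Fn1 sum by sequencing batch, colored by tissue. Ifitm2 averages 1841 CPM in SB118 and 4978 CPM in SB124, while Ifitm3 stays at 4788 and 4404 CPM.

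Relapse-free lungs gave 0 calls in 18 member tests in 11 labels, where 0.00957% of all genes tested were called. By edgeR 4 of the 18 had an unadjusted p below 0.05, and DESeq2 called 0. The values lay in the direction seen in Distal normal tissue for Ifitm1 in Neut Ptgs2 (log2 difference of 1.90, adjusted p of 0.272 by edgeR) and Ifitm6 in Mon Fn1 (-1.01, 0.358). Ifitm7 in Mon Fn1 averaged 193 CPM in Relapse-free lungs (66.2 to 461), 73.1 CPM in Normal and 78.1 CPM in Pre-MET lungs.

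**Figure D4:**
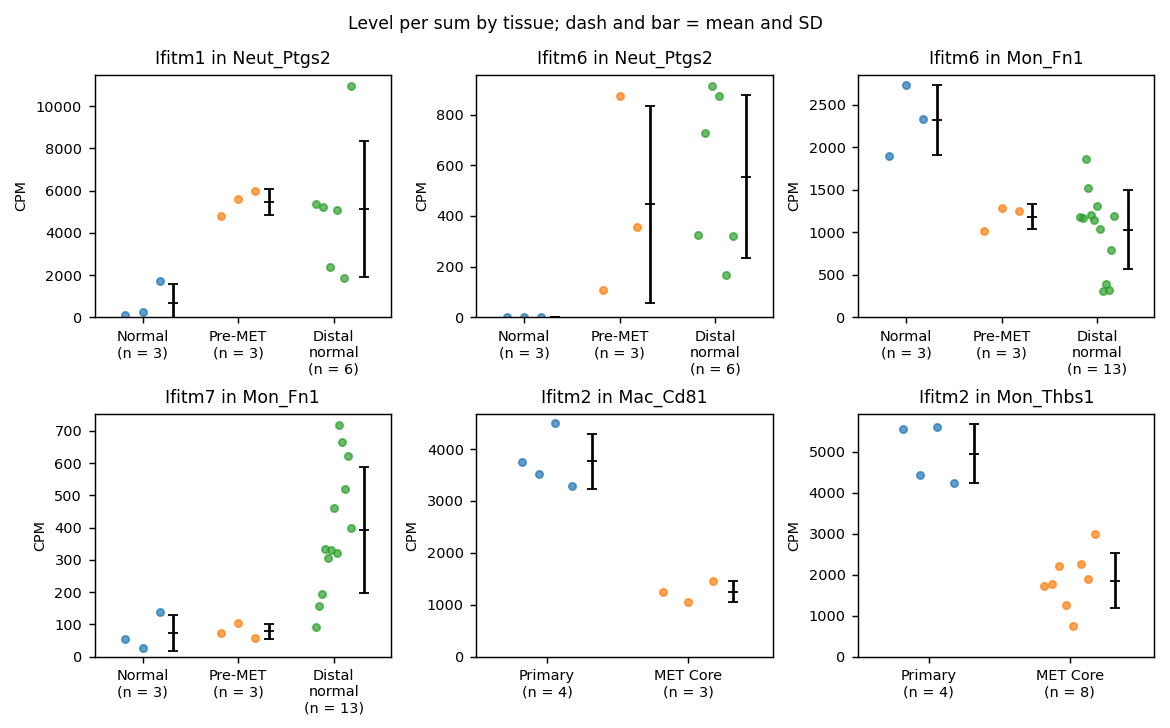
CPM of the members called between tissues within 1 label, 1 point per sum, with the group mean and SD beside the points. In Neut Ptgs2 the Ifitm1 sums of Pre-MET and Distal normal tissue lie above the 3 Normal sums, and in Mon Fn1 the Ifitm6 sums of Distal normal tissue lie below them.

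In lineage sums, which mix labels, the Normal comparison gave 4 calls of 13 member tests for Distal normal tissue (3.85% of all genes), 0 of 13 for Pre-MET (2.58%, 4 at an unadjusted p below 0.05 by edgeR, 2 called by DESeq2) and 0 of 19 for Relapse-free (0.0282%, 7 at an unadjusted p below 0.05 by edgeR, 0 called by DESeq2). Ifitm7 in monocytes passed the filter on low counts through Distal sums alone, so its call is a description, also with a Normal lung left out. It had 53.8, 55.4 and 65.8 CPM in Normal and 91.1, 325 and 916 CPM as the lowest, median and highest of 14 Distal sums, every one above Normal. The log2 fold change was 2.58 ± 0.47, with an adjusted p of 0.000276 by edgeR and at most 0.00829 with any Normal lung left out. Normal monocytes were 58.6% Mon Ace and 23.9% Mon Fn1, and Distal monocytes 70.4% Mon Fn1, and the part of this makeup was not tested. Ifitm7 in monocytes also moved with sequencing batch. In SB112 the Distal, Core, margin and Relapse-free sums had 91.1, 82.5, 93.7 and 92.0 CPM. Relapse-free sums had 93.4 and 71.8 CPM in SB96 and 57.3 CPM in SB101, but 291 CPM in SB118 and 381 CPM in SB128. The part of the batch was not tested.

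The other 3 calls were each lost without at least 2 of the 3 Normal lungs, taken out in turn, while their direction stayed. Ifitm7 in neutrophils, with 2 UMIs in Normal, passed the filter on low counts through Distal sums alone, so its call is a description. The same holds for Ifitm1 in monocytes, with 7 UMIs in Normal. Ifitm7 in neutrophils had 0, 0 and 58.5 CPM in Normal and 203, 679 and 1752 CPM in the 9 Distal sums (log2 fold change of 4.90 ± 1.02, adjusted p of 0.0266 by edgeR), with 4.60, 10.17 and 4.40 (adjusted p of 0.117, 0.0640 and 0.0563) without Normal mouse 1, 2 or 3, where removing mouse 2 leaves Normal at 0 and its value depends on the prior count. Ifitm1 in neutrophils had 96.2, 234 and 2235 CPM in Normal and 1946, 5354 and 10699 CPM in Distal normal tissue (2.90 ± 0.76, adjusted p of 0.0492 by edgeR), with 2.44, 2.53 and 5.25 (adjusted p of 0.195, 0.0941 and 0.00487) without Normal mouse 1, 2 or 3. Ifitm1 in monocytes had 0, 20.8 and 23.9 CPM in Normal, from 7 UMIs, and 0, 69.7 and 182 CPM in Distal normal tissue (2.57 ± 0.77, adjusted p of 0.0318 by edgeR), with 3.21, 1.83 and 2.87 (adjusted p of 0.0629, 0.239 and 0.0935) without Normal mouse 1, 2 or 3. Normal neutrophils were 78.8% Neut Ptgs2, and Distal neutrophils 57.8% Neut Lcn2 and 27.3% Neut Ptgs2. In the monocyte sums, neutrophil markers summed to 275, 337 and 665 CPM in Normal and 250, 987 and 4832 CPM in Distal normal tissue, and their part in the Ifitm1 difference was not tested.

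Whether the members differed between a lesion and the lung beside it was asked with MET and Distal normal tissue. Within labels 0 of 24 member tests in 10 labels were called, where 0.0208% of all genes tested were called. By edgeR 1 of the 24 had an unadjusted p below 0.05, Ifitm6 in Neut Ifit3 (log2 difference of -1.97, adjusted p of 0.971), and DESeq2 called 0. In lineage sums 3 of 18 were called, against 2.56% of all genes, and all 3 were in macrophages, with 9 MET and 6 Distal sums. In the macrophage fit alone 123 of 1289 genes were called. With the mouse as a block, Ifitm1 in monocytes was called as well (log2 fold change of 1.05, adjusted p of 0.0226 by edgeR), which without the block had 1.00 and 0.336. Mon Thbs1 made up 4.35% of Distal and 25.9% of MET monocytes and Mon Fn1 70.4% and 48.2%, and the part of this makeup was not tested.

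Ifitm2 in macrophages had 0, 217 and 340 CPM as the lowest, median and highest Distal sum and 682, 1376 and 1876 CPM in MET. The groups did not overlap, and in the 5 mice with both samples the Distal and MET values were 0 and 802, 71.6 and 1376, 247 and 946, 187 and 682, and 314 and 1727 CPM. The log2 fold change was 2.78 ± 0.46, with an adjusted p of 0.000817 by edgeR. Ifitm3 had 0, 252 and 1276 CPM in Distal normal tissue and 740, 2173 and 4565 CPM in MET, with overlap (2.14 ± 0.56, adjusted p of 0.0155 by edgeR). Ifitm7 had 0, 0 and 56.6 CPM against 69.4, 218 and 638 CPM, with no overlap (4.25 ± 0.89, adjusted p of 0.00272 by edgeR). With 2 UMIs in Distal normal tissue, Ifitm7 passed the filter on low counts through MET sums alone, so its call is a description. Each of the 3 was still called with any single sum left out where it could be tested, Ifitm7 falling below the filter on low counts without any 1 of 6 MET sums. With the mouse as a block, Ifitm2 had 2.79 and Ifitm3 2.81 (adjusted p of 0.000263 by edgeR for each), and Ifitm7 was not tested. Within batch SB118 the Distal sums of Ifitm2 were 0, 71.6, 187 and 247 CPM and the MET sums 802, 946 and 1376 CPM.

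The makeup of these macrophages moved with the result. Distal macrophages were 64.0% Mac Cd9, 16.9% Mac Gpnmb, 12.4% Mac Cd81 and 6.74% Mac Isg20, and MET macrophages 39.9% Mac Isg20, 33.9% Mac Gpnmb, 18.0% Mac Cd81 and 8.22% Mac Cd9. Mac Cd9 was the macrophage label with the lowest mean of Ifitm2 and Ifitm3, as given above. The 4 alveolar macrophage markers summed to 3680, 12645 and 13898 CPM in Distal normal tissue and to 83.2, 798 and 3469 CPM in MET as the lowest, median and highest sums. Platelet markers summed to 0, 37.3 and 369 CPM and to 355, 676 and 2037 CPM, and their part was not tested. Without Mac Cd9 only 1 Distal sum of 10 cells was left, so that no test was possible and the makeup and a change within macrophages cannot be told apart. Of the other interferon genes, Isg15, a ubiquitin-like modifier, rose in the same sums (log2 fold change of 2.90, adjusted p of 0.0356 by edgeR), as did Ly6e, a membrane-anchored protein (1.27, 0.0422), and 3 of 17 tested genes of the interferon list were called, all up, with a median log2 fold change of 1.32 against 0.15 for all genes. Of all 1289 genes of that fit 89 were called up and 34 down.

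**Figure D5:**
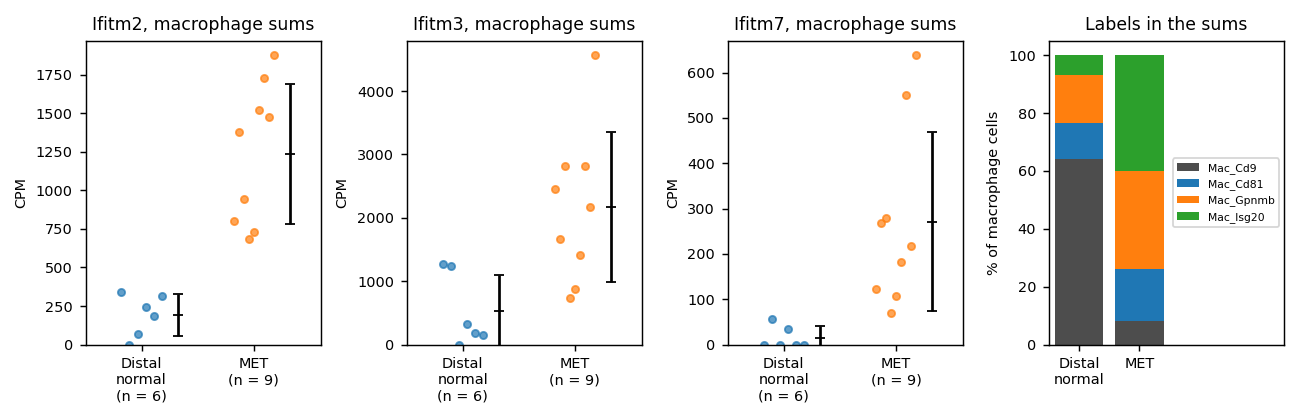
CPM of Ifitm2, Ifitm3 and Ifitm7 in each macrophage sum of Distal normal tissue and MET, 1 point per sum, with the group mean and SD beside the points, and in the last panel the percentage of each macrophage label among the cells of these sums. For Ifitm2 all 9 MET sums, from 682 CPM, lie above all 6 Distal sums, up to 340 CPM.

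The margin and the core of lesions were compared within and across labels, and edgeR called no member in either. Within labels 0 of 7 member tests in 5 labels were called (0% of all genes, 0 members at an unadjusted p below 0.05 by edgeR, 0 called by DESeq2), with log2 differences between -0.27 and 0.86. The 7 tests lay in Mac Gpnmb (3) and Mon Fn1 (4), and no member was tested in the NK and T cell labels. No neutrophil or dendritic cell label could be fitted, nor could Mon Thbs1 and Mac Isg20. In lineage sums 0 of 16 were called (0.0652% of all genes, 1 member at an unadjusted p below 0.05 by edgeR, 1 called by DESeq2). That value was Ifitm1 in macrophages, with a log2 difference of margin minus core of -3.55 and an adjusted p of 0.160 by edgeR. DESeq2 called it (-3.66, adjusted p of 0.0312), as did edgeR without the filter on low counts (-3.59, adjusted p of 0.00590). Margin macrophages were 84.0% Mac Gpnmb and core macrophages 58% Mac Isg20, labels with mean Ifitm1 levels of 15.7 and 236 CPM, and the part of this makeup was not tested.

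The core of metastases was set against the primary tumor to compare 2 sites of the same cancer. Within labels 2 of 20 member tests in 7 labels were called, against 2.26% of all genes, and both were Ifitm2, lower in the core. Their fits called 125 of 1563 genes (Mac Cd81) and 32 of 2345 genes (Mon Thbs1). In Mac Cd81 the core had 1057, 1247 and 1454 CPM and Primary 3283, 3522, 3753 and 4507 CPM, with a log2 fold change of -1.83 ± 0.35 and an adjusted p of 0.00349 by edgeR. In Mon Thbs1 the 8 core sums had 741, 1829 and 2993 CPM as the lowest, median and highest, and Primary 4232, 4427, 5540 and 5603 CPM, with a log2 fold change of -1.49 ± 0.30 and an adjusted p of 0.0116 by edgeR. Neither pair of groups overlapped. The Mon Thbs1 value was -1.42 (adjusted p of 0.0653 by edgeR) without the Primary sample of mouse 10 and -1.53 (0.0555) without that of mouse 38. Ifitm3 in Mon Thbs1 had means of 5495 CPM in the core and 5025 CPM in Primary.

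Depth and batch moved with both. Median UMIs per cell were 8661 in Primary and 1323 in core Mac Cd81, and 4328 and 1524 in Mon Thbs1. The core and Primary Mac Cd81 sums shared no batch, so that batch and site cannot be told apart there. In the 1 batch that held both groups for Mon Thbs1, SB128, the core sum had 2993 CPM and the Primary sum 5603 CPM. With sequencing batch as an added term, Ifitm2 in Mon Thbs1 had a log2 difference of -0.82 and an adjusted p of 0.681 by edgeR. In Mac Cd81 the macrophage markers summed to 6035 to 7254 CPM in the core and 21361 to 26782 CPM in Primary, and the neutrophil markers to 475 to 1020 and 31.9 to 150 CPM. Erythroid markers summed to 72.7 to 227 CPM in the core and at most 3.04 CPM in Primary, and both proliferation markers were at 0 in the core and summed to 63.8 to 174 CPM in Primary. The part of these markers in the result was not tested. Of the interferon list, 8 of 29 tested genes fell and 0 rose in Mac Cd81, with a median of -1.89 against -0.22 over all genes, where 75 of all 1563 genes of that fit fell and 50 rose, among them Isg15 (-4.77, adjusted p of 0.0110 by edgeR) and Irf7, a transcription factor of the interferon response (-3.55, 0.0184). In Mon Thbs1 0 of 45 list genes were called by edgeR, with a median of 0.08.

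In lineage sums 2 of 18 member tests were called, against 1.95% of all genes. The fits called 99 of 2162 genes in macrophages and 27 of 1835 in monocytes. Ifitm2 in macrophages had 526.4, 996 and 2601 CPM as the lowest, median and highest of 10 core sums and 3496, 3529, 3662 and 4844 CPM in the Primary sums, with no overlap (-1.55 ± 0.37, adjusted p of 0.0147 by edgeR). Ifitm1 in monocytes had 0, 117 and 449 CPM in the 13 core sums and 496, 729, 1059 and 1549 CPM in Primary, with no overlap (-2.37 ± 0.44, adjusted p of 0.00984 by edgeR, and -2.34 with 0.0626 without the Primary sample of mouse 10). Neutrophil markers in these monocyte sums were at 108 to 170 CPM in Primary and 58.6 to 1906 CPM in the core, with overlap, and their part was not tested. With batch as an added term the log2 differences were -1.46 for Ifitm2 (adjusted p of 0.401 by edgeR) and -3.39 for Ifitm1 (0.319). Primary macrophages were 82.5% Mac Cd81, and core macrophages 58% Mac Isg20, 22% Mac Gpnmb and 19.25% Mac Cd81. Primary monocytes were 45.3% MHC-II and 37.2% Thbs1 against 56.1% Thbs1 in the core. Median UMIs per cell were 7107.5 in Primary and 1417 in core macrophages, and 5201 and 1312 in monocytes. The part of makeup and depth in both results was not tested.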

How the data were processed

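The authors sorted single cells into plates and made 3′ libraries, mapped reads with HISAT to mm10, dropped reads with several mapping positions and collapsed reads to UMIs. They deposited raw UMI counts per gene and well, with a table of cell labels, mouse, tissue and sequencing batch. bcl2fastq 2.15.0.4 is named in the submitters' processing notes, and the annotation version and strand setting are not given in the sources used here. Of 56832 wells on 148 plates, 23425 labelled immune cells of at least 500 UMIs were used. Another 595 cells labelled Tumor, Outlier or Erythrocytes and 92 spike-in rows were left out, no well name occurred on more than 1 plate, and doublets were not called again.

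Counts were summed per mouse, tissue and label or lineage (10 or more cells) and tested with edgeR 4.0.16 (R 4.3.3, TMM, filterByExpr, quasi-likelihood F test) where both groups had at least 3 sums, all genes being fitted and adjusted together. Sums, not cells, were the replicates, and p-values measure the spread between these samples. The script was tested on simulated data. Alternatives were DESeq2 1.42.0, RLE factors, no filter, 20 cells, cells of at least 1000 UMIs, a batch term, leaving out each sum of groups of at most 5 sums (and, added after seeing the data, each macrophage sum of MET and Distal normal tissue), and the mouse as a block. The mouse number comes from the labels, and sums of 1 mouse deviated together with a median correlation of 0.157 over 12 MET and Distal pairs of Mon Fn1 (9 above 0.1), against -0.0128 between mice. Named genes were the members, the 3 genes most like each over labels (mean log2(CPM + 10), genes reaching 50 CPM), and a fixed set of interferon genes. The members and lists were chosen with earlier results of these data known. Other software was Python 3.11.15 with pandas 2.3.3, scipy 1.17.1, matplotlib 3.10.9 and Biopython 1.88.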

Additional observations from a re-analysis of the deposited data

Results flagged for a closer look

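Among 31 groups of 4 to 10 sums examined for a value far from the rest, 4 had one. The rule is set to about 1 in 20 for normally spread values, and its rate for CPM values was not tested. In PMN-MDSC (n = 5), 1 sum reached 6115 CPM of Ifitm1 with the next at 1855, and 1 reached 1832 CPM of Ifitm2 with the next at 564.6. In Mac Cd81 (n = 9) 1 sum had 654.4 CPM of Ifitm6 and the next 158.5, and in cDC1 (n = 5) 1 sum had 608.9 CPM of Ifitm7 and the next 37.82.

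The differences of Ifitm6 from the same Normal lungs had opposite signs in Mon Fn1 and Neut Ptgs2. The log2 difference of Distal normal tissue and Normal was -1.206 in Mon Fn1 and 7.899 in Neut Ptgs2, and that of Relapse-free and Normal lungs was -1.011 and 6.956. The Relapse-free differences were not called, and both Distal calls were lost without any 1 of the Normal lungs. The Neut Ptgs2 values depend on the prior count, since Normal held no Ifitm6 UMI there, and the difference between the cell types was not tested.

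Cells left out of the comparisons also held Ifitm RNA, as CPM over all cells of a label. The 94 cells labelled Tumor had 27.02 CPM of Ifitm1, 1046 of Ifitm2, 1266 of Ifitm3 and 129.3 of Ifitm7. The 165 labelled Outlier had 126.7 CPM of Ifitm1, 1691 of Ifitm2, 2501 of Ifitm3, 265.1 of Ifitm6 and 159.1 of Ifitm7. The 336 labelled Erythrocytes had 1815 CPM of Ifitm1, 1538 of Ifitm2, 1251 of Ifitm3, 329.1 of Ifitm6 and 152.1 of Ifitm7.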

How the results depend on the processing

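No called member changed direction under any alternative run. In label sums, the calls between Pre-MET and Normal (1) became 3 with DESeq2, which added Ifitm3 and Ifitm6 in Mon Fn1 (log2 fold changes of -0.55 and -1.06), and 0 with 20 cells or with cells of at least 1000 UMIs, where Neut Ptgs2 could not be fitted. Those between Distal normal tissue and Normal (4) became 2 with 20 cells and 2 with 1000 UMIs, 6 with DESeq2, which added Ifitm7 in Mon Ace and Neut Ptgs2, and 3 without the filter, among them Ifitm1 in Mon Fn1, and those between MET Core and Primary (2) became 1 with 20 cells, 1 with 1000 UMIs and 0 with a batch term. In lineage sums, Pre-MET gave 2 with DESeq2 and 3 without the filter in place of 0, Distal normal tissue 2 with 20 cells, 1 with 1000 UMIs, 5 with DESeq2 and 6 without the filter in place of 4, MET against Distal 6 without the filter and 0 with 20 cells or 1000 UMIs, where macrophages could not be fitted, in place of 3, margin against core 1 with DESeq2 and 1 without the filter in place of 0, and core against Primary 4 without the filter and 0 with a batch term in place of 2. Without the filter Ifitm6 in Distal normal tissue lost its calls in Mon Fn1 (adjusted p of 0.105 by edgeR) and Neut Ptgs2 (0.138), and with RLE factors Ifitm1 in the neutrophil lineage (0.0519).

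Leaving out 1 sum at a time, in groups of at most 5 sums and in the macrophages of MET and Distal normal tissue, gave, in label sums, 0 to 1 calls for Pre-MET, 0 to 4 for Distal normal tissue, 0 to 1 for Relapse-free, 0 to 0 for MET, 0 to 0 for the margin and 1 to 3 for core against Primary. In lineage sums it gave 0 to 2, 1 to 5, 0 to 1, 2 to 3, 0 to 0 and 1 to 2 in the same order. Of these settings on single called members 23 lost the call and 65 kept it. The replicate block by mouse left 0 calls in label sums of MET against Distal and of margin against core, 3 in lineage sums of MET against Distal and 0 of margin against core. It changed no other call than those named in the report.

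Against 34 member and label pairs with a mean of at least 1000 CPM, the number was 29 with 20 cells, 33 with 1000 UMIs and 32 by the median. The label with the highest mean changed from cDC2 for Ifitm2 (to Neut Lcn2 with 20 cells or by the median, and to Neut Camp with 1000 UMIs), from Neut Ifit3 for Ifitm1 (to Neut Lcn2 with 20 cells or 1000 UMIs), from Neut Ifit3 for Ifitm7 (to Neut Lcn2 with 20 cells and cDC2 with 1000 UMIs) and from Neut Camp for Ifitm6 (to Neut Lcn2 with 20 cells, where Neut Camp had no sum). It was Mon Thbs1 for Ifitm3 under all 3. Depth limits rare members most, since a group at 0 still allows 3 UMIs.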
